A study of Mus musculus with 12 samples.

Results

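Genes of B cells and of plasma cells were followed in islets of diabetes-prone NOD mice and of NOD.B10 mice. The members are 9 genes named for the lineage, Ms4a1, Cd79a, Cd79b, Cd22, Blk, Bank1, Pou2af1, Jchain and Mzb1, of 17016 gene symbols that the arrays carry. Every non-control probe of these genes was taken, which gave 12 probes, with 2 each for Cd22, Bank1 and Jchain. The NOD group held islets of 6 female mice aged 12 weeks and the NOD.B10 group islets of 6 females of the same age, and neither group had a treatment or an engineered allele in its labels. NOD.B10 mice share the NOD background but carry another MHC haplotype and stay free of diabetes. Islets were cut by laser from stained frozen pancreas sections, at least 40 per the design text, so cells lying in or against an islet can enter the sample. Islet RNA was amplified, labelled with Cy5 and hybridised with a Cy3-labelled universal mouse RNA, 1 array per mouse, and the dyes were not swapped.

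B cells bind antigen with a surface immunoglobulin whose signal passes through the partner chains encoded by Cd79a and Cd79b, and plasma cells, into which they can mature, secrete antibody in bulk. In NOD mice lymphocytes collect around and in the islets before diabetes, a state called insulitis, and B cells are a known component of these infiltrates that can present antigen to T cells. In an islet cut from a section, fewer B cells and less B cell RNA per cell cannot be told apart.

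The islet channel itself differed between the strains. Cy5 was well above background, as the scanner marked it, on 10.7 to 17.3% of non-control spots in NOD and on 3.96 to 7.88% in NOD.B10. Over the 1083 probes bright on all 12 arrays, the net Cy5 signal (signal minus local background, in scanner units) was higher in NOD by a median of 1.65 on the log2 scale. Replicates 1 and 2 of NOD had slide 1 to themselves, as NOD.B10 replicates 2 and 3 had slide 4, which was read on another scan day. Both strains, with 2 mice each, shared slides 2 and 3. Islet endocrine markers had a summed net Cy5 of 33025 to 69540 in NOD and 27110 to 64458 in NOD.B10, and 11 of 12 passed the filter used for testing. Gcg and Ins2 carried most of that sum, while Slc30a8 was above background on 0 arrays and Ppy on 1 NOD and 3 NOD.B10 arrays.

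The surface proteins of B cells split into probes that read clearly in NOD and probes that read nowhere. Ms4a1 (chr19:11249679-11266149 in GRCm38.p6), which encodes the B cell antigen CD20, had a net Cy5 of 113, 419.5 and 1067 (lowest, median and highest of 6) in NOD, against 0, 3 and 5.5 in NOD.B10. All 6 NOD arrays read it well above background and no NOD.B10 array did, so the strains did not overlap. The log2 ratio of Cy5 to Cy3 averaged 3.28 ± 1.11 (SD) over the 6 NOD mice and -0.21 ± 0.14 over the 6 NOD.B10 mice. Its difference, NOD minus NOD.B10, was 3.49 ± 0.41 (SE, limma, adjusted p = 8.4e-05), and since no NOD.B10 array read the probe, the rise is stated as at least 7.57-fold under this normalisation. The bound depends on the scaling: the floor set for dim arrays lay below the normalised NOD.B10 values of Ms4a1, so the bound is the fold of the normalised Cy5 means. Median centring gave 6.86-fold for Ms4a1 and quantile-scaled Cy5 gave 4.12-fold. Relative to the median of all probes tested, these were log2 differences of 2.35 and 1.95.

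Cd79b (chr11:106311341-106314562), the beta partner chain of the B cell receptor, had a net Cy5 of 20.5, 105 and 224.5 in NOD, against -3, 0 and 6.5 in NOD.B10. Every NOD array again lay above every NOD.B10 array, and 2 of the 6 NOD arrays, replicates 3 and 5, had only 21.5 and 20.5. The log2 ratio differed by 1.93 ± 0.40 (SE, adjusted p = 0.00272), a rise of at least 2.38-fold under this normalisation. Quantile-scaled Cy5 gave 1.87-fold, below that bound. For Cd79a (chr7:24897497-24901858), the alpha partner chain, net Cy5 was 0, 1 and 4 in NOD and -4, 0.5 and 7 in NOD.B10. Cd79a was well above background on 0 of the 12 arrays in Cy5 and on 0 in the common reference, so its probe gave no measurement in either strain. Cd22 (chr7:30865404-30880342), an inhibitory coreceptor of B cells, had 2 probes with median net Cy5 of 1 and 1 in NOD, against 1 and 0.75 in NOD.B10. Neither Cd22 probe rose above background in Cy5 on any array, and in the reference they did so on 2 and 0 of the 12 arrays.

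**Figure D1:**
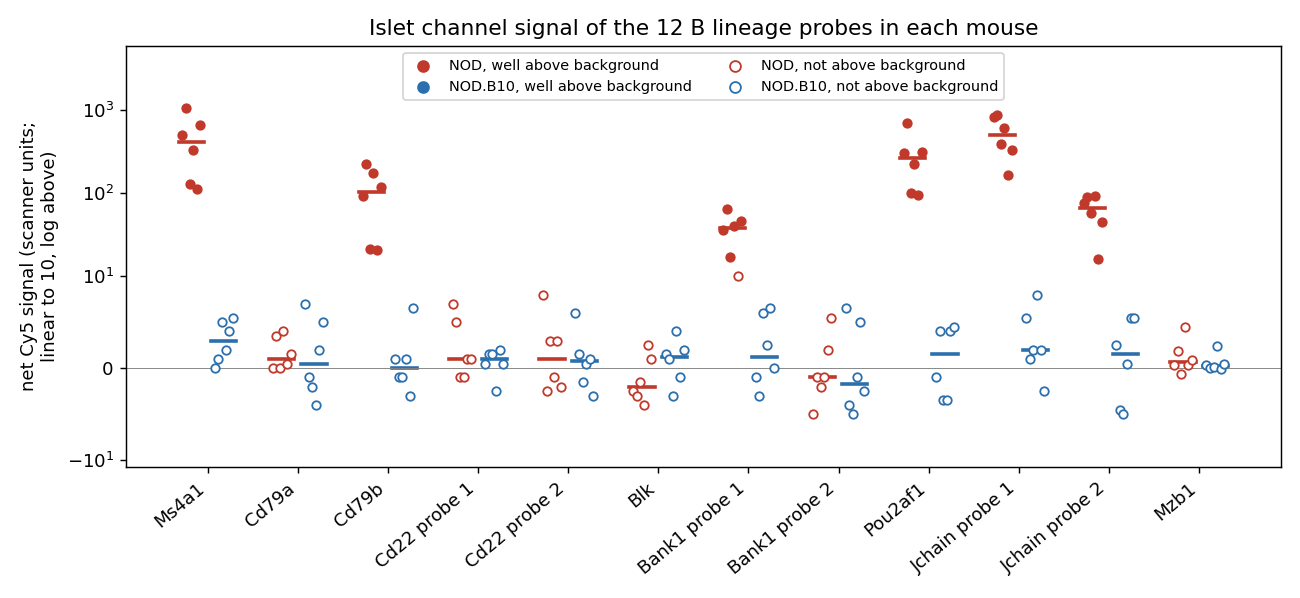
Net Cy5 signal (scanner units, linear up to 10 and logarithmic above) of the 12 probes in each mouse, with NOD in red to the left of NOD.B10 in blue. Filled points are well above background, open points are not, and lines are medians of 6 mice. Filled points occur for 6 probes and in NOD mice only, and the other 6 probes stay near 0 in both strains.

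Of the genes that act behind the receptor, Bank1 (chr3:136053363-136326141), a B cell scaffold protein with ankyrin repeats, gave the lowest signals among the probes that could be tested. Its probe 1 had a net Cy5 of 10, 38.25 and 64.5 in NOD, against -3, 1.25 and 6.5 in NOD.B10. The strains did not overlap, but NOD replicate 5 lay below the background mark and the gap to the highest NOD.B10 array was small. The log2 difference was 1.01 ± 0.20 (SE, adjusted p = 0.00178), and the bound on the rise was at least 1.05-fold. Bank1 probe 2 was dim in both channels on all 12 arrays, with net Cy5 of -5 to 5.5 in NOD and -5 to 6.5 in NOD.B10, so only 1 of the 2 probes supplies this result. Under median centring of each array in place of loess, the probe 1 difference of 0.43 (adjusted p = 0.0125) lay at the median of all probes tested, 0.43, so relative to that median Bank1 showed no rise there. Blk (chr14:63372837-63417187), a Src family kinase of B cells, had a net Cy5 of -4, -2 and 2.5 in NOD, against -3, 1.25 and 4 in NOD.B10, and was above background on 0 arrays in either channel.

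Pou2af1 (chr9:51213690-51240079) encodes the coactivator OBF1, which joins octamer-binding factors on B cell promoters and remains expressed in plasma cells. Its net Cy5 was 95, 268 and 712 in NOD, against -3.5, 1.5 and 4.5 in NOD.B10. The lowest NOD array thus stood far above the highest NOD.B10 array. The log2 ratio was 2.42 ± 0.78 (SD) in the 6 NOD mice and -0.36 ± 0.18 in the 6 NOD.B10 mice, and the difference of 2.78 ± 0.29 (SE, adjusted p = 4.36e-05) goes with a bound of at least 5.01-fold under the same normalisation. The floor did not enter this bound either, and quantile-scaled Cy5 gave 3.22-fold.

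Jchain (chr5:88519809-88527897), the joining chain of polymeric IgA and IgM that antibody-secreting cells make, had 2 probes that passed. Probe 1 had a net Cy5 of 166, 503 and 879 in NOD, against -2.5, 2 and 8 in NOD.B10. Probe 2 was dimmer, with 16, 67 and 93.5 in NOD, against -5, 1.5 and 5.5 in NOD.B10. On both probes all 6 NOD arrays and no NOD.B10 array were above background. The difference was 3.61 ± 0.29 (SE, adjusted p = 6.06e-06) on probe 1, at least 8.86-fold, and 1.39 ± 0.22 (SE, adjusted p = 0.000571) on probe 2, at least 1.76-fold. Both bounds hold under this normalisation only. For probe 1 the floor did not enter, and the fold was 7.84 under median centring and 4.94 on quantile-scaled Cy5. Relative to the median of all probes tested, these were log2 differences of 2.55 and 2.21. For probe 2 quantile-scaled Cy5 gave 1.59-fold, below its bound. The probes agree in direction and differ in size, and on the scanner's processed Cy5 they lay closer, at 5.70 and 4.02. Relative to the median of all probes tested, the processed Cy5 values were 5.13 and 3.45. Mzb1, a chaperone partner of plasma and marginal zone B cells, had a net Cy5 of -0.69, 0.66 and 4.5 in NOD, against -0.056, 0.23 and 2.45 in NOD.B10. Mzb1 was above background on 0 arrays in Cy5 and on 6 of 12 in the reference, so no strain difference was detectable on its probe.

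The stretches before the start sites of Jchain and Pou2af1 are shown because both genes rose and Pou2af1 acts through octamer motifs. They are the 250 bases upstream of each start in the RefSeq table for GRCm38.p6, a C57BL/6J assembly rather than the NOD genome, written 5′ to 3′ on the gene's strand, Jchain at chr5:88527898-88528147 (minus) and Pou2af1 at chr9:51213440-51213689 (plus). Capitals would mark a motif, and none of those searched occurs in either.
Jchain: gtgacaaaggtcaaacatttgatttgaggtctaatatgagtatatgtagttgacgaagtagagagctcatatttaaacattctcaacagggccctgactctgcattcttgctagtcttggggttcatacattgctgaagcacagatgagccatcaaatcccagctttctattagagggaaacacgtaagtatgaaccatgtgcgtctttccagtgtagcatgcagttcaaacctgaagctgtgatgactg
Pou2af1: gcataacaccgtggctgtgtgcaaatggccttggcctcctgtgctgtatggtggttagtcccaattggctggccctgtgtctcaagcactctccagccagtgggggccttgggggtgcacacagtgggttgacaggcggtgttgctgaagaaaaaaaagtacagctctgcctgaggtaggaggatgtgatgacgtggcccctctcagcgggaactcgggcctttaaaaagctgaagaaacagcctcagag
The letters searched on both strands were the octamer ATGCAAAT, an EBF motif (TCCC, any pair of bases, GGGA) and an ETS motif GAGGAAGT, which 1.6%, 0.779% and 2.44% of the 32851 windows of this length in the table hold. The table has 5 of the 9 members, Cd79a, Cd22, Bank1, Pou2af1 and Jchain. The 1 match among them was an EBF motif in Cd22, 49 to 40 bases before the start that the table uses, which lies inside the gene span given above, and the absence of these letters elsewhere says nothing about binding.

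In all, 6 of the 12 probes, from 5 of the 9 genes, passed the filter (Cy5 well above background on at least 4 of 12 arrays), and all 6 rose in NOD by limma (threshold of 0.05 on the p adjusted after Benjamini and Hochberg). Of all 5347 probes tested, 20.0% were called higher and 16.4% lower, and every NOD array lay above every NOD.B10 array for 9.89% of them, against 6 of 6 here. Each of the 6 passed through its NOD arrays alone, so the filter itself favoured higher NOD values, and the count is no support beyond the values above. Among the 1722 tested probes that no NOD.B10 array read above background, 30.2% were called higher and the median difference was 0.16, against 0.02 over all probes tested. On that scale the 6 member probes ran upward from Bank1 at 1.01, Jchain probe 2 at 1.39 and Cd79b at 1.93 to Pou2af1 at 2.78, Ms4a1 at 3.49 and Jchain probe 1 at 3.61.

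Within the slides that held both strains, the 6 differences kept their sign. With 2 mice of either strain, the differences on slide 2 were 3.00 for Ms4a1, 1.87 for Cd79b, 1.00 for Bank1, 2.50 for Pou2af1, and 4.00 and 1.79 for the Jchain probes. On slide 3 they were 3.32 for Ms4a1, 1.43 for Cd79b, 0.76 for Bank1, 2.44 for Pou2af1, and 2.88 and 0.59 for the Jchain probes. Only Jchain probe 1 on slide 2 passed (adjusted p = 0.0400), and on slide 3 limma called 0 of 6 (3 at an unadjusted p under 0.05). With slide as a fixed term over all mice, 5 of 6 passed and Cd79b did not (1.65, adjusted p = 0.0524). Of all 5347 probes tested, 43 were called higher on slide 2, 2 on slide 3 and 508 with the slide term. On slide 3, 771 of all probes had an unadjusted p under 0.05 by limma.

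The brightness of the islet channel moved with the strains, and adding the share of spots above background as a covariate left 0 of 6 probes called (2 at an unadjusted p under 0.05). The share did not overlap between the strains, so this fit separates brightness from strain poorly. For Ms4a1 the SE was 0.75 with the covariate and 0.41 without. With that covariate, limma called 5 of all 5347 probes higher, and 399 had an unadjusted p under 0.05. The differences under that term were 2.96 and 0.91 for the Jchain probes, 1.50 for Ms4a1, 1.30 for Pou2af1, 0.59 for Cd79b and 0.10 for Bank1. The arrays nearest in brightness were NOD replicate 5, with 10.7% of spots above background, and NOD.B10 replicate 5, with 7.88%, both on slide 3. On this pair net Cy5 was 113 against 4 for Ms4a1, 166 against 2 for Jchain probe 1, 95 against 4 for Pou2af1 and 20.5 against -3 for Cd79b. The pair lay closer on the dim probes, at 16 against 5.5 for Jchain probe 2 and 10 against 6.5 for Bank1. How far overall brightness enters the differences was not tested beyond this.

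**Figure D2:**
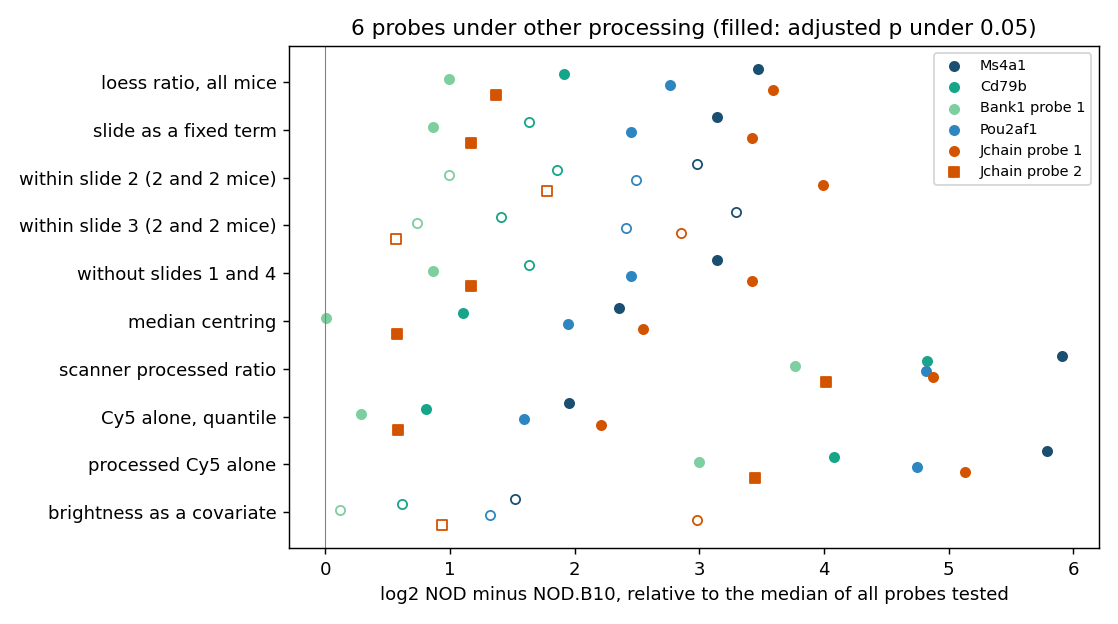
Log2 difference, NOD minus NOD.B10, of the 6 tested probes, each relative to the median of all probes tested, under 10 ways of processing or fitting (from top to bottom). Filled points have an adjusted p under 0.05. Every point lies at or above 0, Bank1 reaches 0 under median centring, and no point is filled within slide 3 or with brightness as a covariate.

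The NOD mice differed widely among themselves, and the members did not order them alike. Ms4a1 log2 ratios ran, in replicates 1 to 6, 3.67, 4.20, 1.91, 3.47, 1.93 and 4.48, which puts replicates 3 and 5 well below the rest. Cd79b and Pou2af1 also had replicates 3 and 5 as their lowest, and Bank1 had the same pair at the bottom. By the loess ratio, replicate 6 was highest for Ms4a1, replicate 4 for Cd79b and both Jchain probes, and replicate 2 for Pou2af1 and Bank1. The highest mouse depended on the scaling. On unscaled net Cy5, replicate 2 was highest for every tested member probe but Jchain probe 2, where it was replicate 4. On processed Cy5 the highest was replicate 2 for Ms4a1 and replicate 4 for Bank1. Jchain probe 1 ran 3.90, 3.19, 3.36, 4.08, 2.10 and 2.51, with replicates 5 and 6 lowest. Jchain probe 2 ordered the 6 mice in the same way as probe 1 on the loess ratio only. On the scanner's processed ratio, processed Cy5 and net Cy5 the Jchain probes gave orders that differed. On the loess ratio, replicate 6 therefore had the highest Ms4a1 value and the next to lowest Jchain value. Replicate 3 had the lowest Ms4a1 value there and a Jchain value above the mean of the mice.

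With each probe centred on its own mean over the 6 NOD mice, Jchain exceeded Ms4a1 in replicate 3 by 1.54 on probe 1 and 1.49 on probe 2. In replicate 6 Jchain lay below Ms4a1, at -1.89 and -1.45. Other members parted from Ms4a1 too: Cd79b lay at 1.09 from it in replicate 4, and in replicate 6 Cd79b lay at -0.79 and Pou2af1 at -0.72. In replicate 3, Cd79b and Pou2af1 stayed nearer to Ms4a1, at 0.04 and 0.34. The scanner's processed ratio gave 1.24 and 1.50 in replicate 3 and -1.41 and -0.78 in replicate 6, and processed Cy5 alone gave 1.32 and 1.60, then -1.35 and -0.94. These mice were on slides 2 and 3, and Cy5 was above background on 12.4% and 14.6% of their spots. The summed net Cy5 of leukocyte markers was 518 in replicate 3 and 1610 in replicate 6, that of T cell markers 116 and 230.0, and that of endocrine markers 69540 and 58527. Their part in the contrast between Jchain and Ms4a1 was not tested, and with 1 array per mouse it has no replicate.

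**Figure D3:**
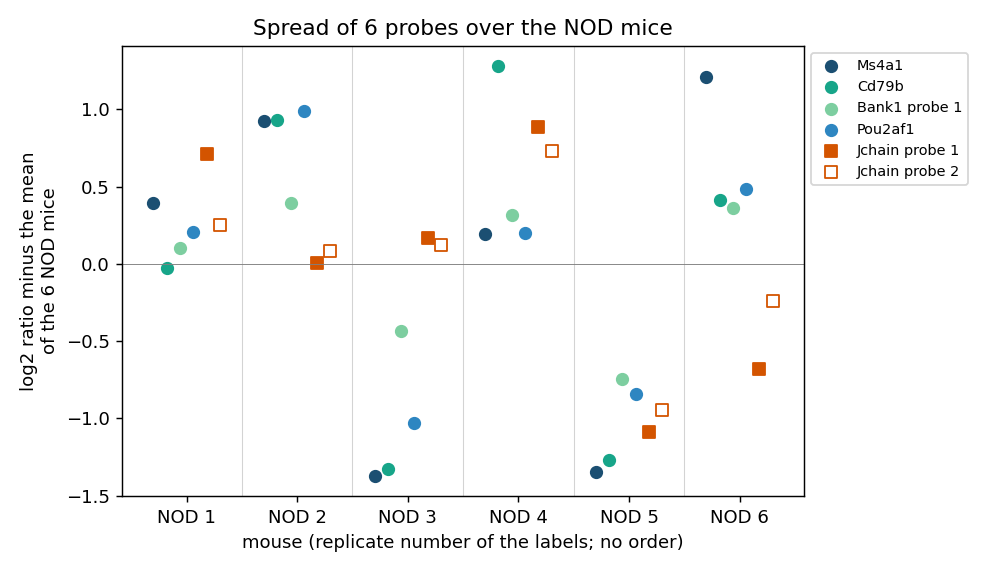
Log2 ratio of Cy5 to Cy3 of the 6 tested probes in each NOD mouse, centred on the mean of the 6 NOD mice for each probe, with Jchain as squares and the B cell genes as circles. Ms4a1 and both Jchain probes part most in NOD 3, where Jchain lies 1.54 and 1.49 above Ms4a1, and in NOD 6, where it lies at -1.89 and -1.45 from it.

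Other genes of the lineage, in 5 lists of 70 genes, read too dim in most cases. A probe existed for 67 genes, 42 were too dim to test, and of 25 tested genes 19 were called higher and 0 lower, where 18.8% of 3920 genes tested with 1 probe each were higher and 18.1% lower. The median difference was 0.72 over the tested genes and 0.05 over all 67. No NOD.B10 array read 22 of the 25 above background, so the filter favoured higher NOD values here too. Among the 1722 tested probes that no NOD.B10 array read above background, 30.2% were called higher. The number called higher was 7 with slide as a fixed term, 8 with a filter at 6 arrays, 6 without slides 1 and 4 and 0 with brightness as a covariate. The differences and calls given below are from the fit on all mice without a slide term, and most of the 19 calls did not hold with that term. The brightness covariate turned the sign of Vpreb3 (-0.013), Fcer2a (-0.036), Pik3cd (-0.20), Prdm1 (-0.13), Cxcl13 (-0.072) and Tnfrsf13c (-0.16). Their differences are otherwise given without that covariate. Since the fit separates brightness from strain poorly, these values are not read as falls.

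Among other surface proteins of B cells 7 of 8 tested genes rose (16 listed). Ly86, which pairs with the CD180 receptor, had a net Cy5 of 62, 156 and 508 in NOD, against -1, 5.25 and 11 in NOD.B10 (log2 difference 2.29 ± 0.33, SE, adjusted p = 0.000336). The groups did not overlap, and 1 NOD.B10 array read it above background. Vpreb3, a protein that binds nascent immunoglobulin chains, rose at least 1.34-fold (log2 difference 0.75, adjusted p = 0.00682), although the log2 ratios of the strains overlapped. Fcrl1, an Fc receptor-like protein, and Fcer2a, the low-affinity IgE receptor CD23, differed by 0.67 (adjusted p = 0.00642) and 0.59 (adjusted p = 0.00847), with overlapping strains and no bound above 1.

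Of the genes of receptor signalling 6 of 8 tested rose (14 listed). Rac2, a small GTPase of blood cells, was at least 2.89-fold higher (log2 difference 1.87 ± 0.29, SE, adjusted p = 0.00045). Plcg2, the phospholipase that the receptor activates, was at least 2.37-fold higher (1.39 ± 0.25, SE, adjusted p = 0.0012), and Blnk, the adaptor that recruits it, at least 1.89-fold higher (1.22 ± 0.21, SE, adjusted p = 0.000811). Blnk had a net Cy5 of 26, 63 and 147 in NOD, against -4, 2.75 and 7 in NOD.B10, without overlap. The floor did not enter the bounds of Rac2 and Blnk, which are folds of the normalised Cy5 means. Pik3cd, a catalytic subunit of PI3 kinase in leukocytes, rose by 0.88 (adjusted p = 0.00348) with no bound above 1.

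Transcription factors of B cells were mostly below the filter, with 2 of 12 tested. Irf8, used in B cells and myeloid cells, rose by 0.65 (adjusted p = 0.00637) and Bcl6, the germinal centre repressor, by 0.56 (adjusted p = 0.0428). The Bcl6 call was lost when any of 10 of the 12 mice was left out in turn, with adjusted p up to 0.0922, and with the replicate number as a block (adjusted p = 0.055). It held without NOD replicate 3 (0.0072) or NOD replicate 5 (0.0372). Of 15 further plasma cell genes 3 were tested. Prdm1, the factor that drives plasma cell formation, rose by 0.59 (adjusted p = 0.00656), with a net Cy5 of 5, 13.75 and 27.5 in NOD, against -3.5, 0.75 and 3.5 in NOD.B10. Only 4 NOD arrays read Prdm1 above background, its log2 ratios overlapped between the strains, and it had no bound above 1. Creld2 and Edem1, which serve protein folding and disposal in the endoplasmic reticulum, gave -0.38 (adjusted p = 0.222) and -0.06 (adjusted p = 0.763).

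Among survival factors and follicle chemokines 3 of 4 tested genes rose (13 listed). Ccl19, a chemokine of lymphoid tissue, had a net Cy5 of 67, 246 and 569.5 in NOD, against 0.5, 5.25 and 7 in NOD.B10, at least 5.47-fold higher (log2 difference 3.24 ± 0.35, SE, adjusted p = 4.6e-05). Cxcl13, which draws B cells into follicles, had 22, 85.25 and 297.5 in NOD, against -2, 0.5 and 3 in NOD.B10, at least 2.58-fold higher (1.92 ± 0.39, SE, adjusted p = 0.00223). Tnfrsf13c, the BAFF receptor of B cells, was at least 1.13-fold higher (1.18 ± 0.28, SE, adjusted p = 0.0062). By log2 ratio every NOD array lay above every NOD.B10 array for these 3 genes, which are among 9 such genes of the 25 tested in the 5 lists. Of all probes tested, 9.89% did so. No NOD.B10 array read these 3 genes above background, so the filter favoured higher NOD values.

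**Figure D4:**
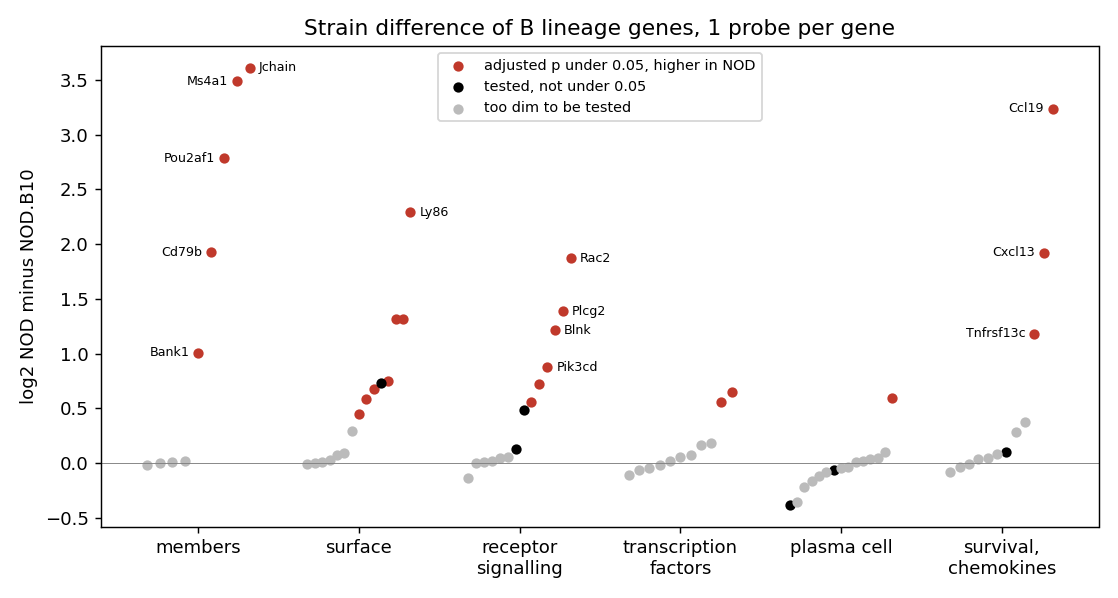
Log2 difference, NOD minus NOD.B10, of the 9 members and of 5 wider lists, 1 probe per gene. Red points were called higher, black points were tested and not called, and grey points were too dim to test. Jchain, Ms4a1 and Ccl19 lie highest, and grey points cluster near 0 in every list.

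The genes whose profile over the 12 arrays lay nearest to Ms4a1 were Ms4a6b, another MS4A family gene (root mean square distance of centred log2 ratios 0.284), Ms4a4b, a lymphocyte MS4A gene (0.430), Srgn, a proteoglycan of leukocyte granules (0.449), Pou2af1 (0.464) and Ptprc, the leukocyte antigen CD45 (0.472). Nearest to Jchain probe 1 were Mbnl1, a splicing regulator (0.549), Srgn (0.597), Shisa5, a membrane protein (0.599), Limd2, a LIM domain protein (0.601), and Ptprc (0.612). Among the members, the distance from Ms4a1 was 0.464 for Pou2af1, 0.802 for Jchain probe 1, 0.885 for Cd79b and 1.32 for Bank1, so Pou2af1 ranked among the nearest of 5346 probes and Jchain ranked 54. These distances mix the step between the strains with the spread of the mice, and all genes share the 12 arrays.

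Most tested markers of leukocytes, T cells and macrophages were higher in NOD, as the members were. No tested acinar or endocrine marker was called higher. Of 3920 genes tested with 1 probe each, 18.8% were called higher and 18.1% lower. No NOD.B10 array read the 7 tested leukocyte genes, 4 of 5 T cell genes or 1 of 5 macrophage genes above background. For those genes the filter favoured higher NOD values, and of all 1722 tested probes that no NOD.B10 array read above background, 30.2% were called higher. The summed net Cy5 of the 9 members, 1 probe per gene, was 409 to 2957 in NOD and 8.5 to 24.5 in NOD.B10. Markers of all leukocytes summed to 407 to 3518 in NOD and 10.3 to 23.5 in NOD.B10, with 7 of 7 tested genes higher. T cell markers summed to 116 to 763 in NOD and 21.6 to 46.8 in NOD.B10, with 4 of 5 tested genes higher, while Cd3e, Cd3g, Cd2, Cd247, Lck and Cd4 were above background on 0 arrays. Macrophage and dendritic cell markers summed to 909 to 4897 in NOD and 53 to 112.5 in NOD.B10, with 4 of 5 tested genes higher and C1qa, C1qb and Flt3 on 0 arrays. Acinar markers summed to 160 to 2913 in NOD and 122.5 to 5553 in NOD.B10, with 3 of 5 lower by the loess ratio. By that ratio 5 of 11 tested endocrine markers were lower, while their summed net Cy5 was 33025 to 69540 in NOD and 27110 to 64458 in NOD.B10. Lower calls depend on the scaling: over all 5347 probes they numbered 876 by the loess ratio and 1 under median centring. The part of these other cell types in signals of genes shared with B cells, such as Rac2, Irf8, Plcg2 and Ly86, was not tested.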

How the data were processed

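For each array the authors deposited intensity values, medians of spot and local background in both channels, from version 10.5.1.1 of Feature Extraction (per the file headers). The software's processed intensity values and their log10 ratio, Cy5 over Cy3, are deposited too, as is a series table with log2 values of that ratio. Here, normexp background correction (offset 50) and within-array loess were run in limma 3.58.1 under R 4.3.3, spots of a probe were averaged, and probes well above background in Cy5 on at least 4 of 12 arrays were tested (lmFit, eBayes, Benjamini-Hochberg over 5347 probes, threshold 0.05). Accessions gave 24375 of 41174 probes a symbol of GRCm38.p6. Median signals stood in for means, which were not used here. A lower bound of fold uses, per NOD.B10 array, a floor at percentile 10 of the signals well above background. Each bound holds for this scaling only. Precision is limited by array number and by dim signals, and no spot was saturated. Nothing beyond the labels says how the mice were bred or housed, so the spread is that between these mice. Named genes are all members, up to 4 called genes of smallest p per list (or 1 or 2 more where fewer are called) and the 5 nearest profiles to Ms4a1 and to Jchain. For a list, the brightest probe stands for a gene. Members and lists were chosen with earlier results of these data known. Same-numbered mice had deviations correlated at r of -0.155 to 0.230, and over 0.1 in 3 of 6 pairs, where all were required, so numbers pair no mice. Alternatives cover slides, mice, normalisation, filters, weights and brightness.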

Additional observations from a re-analysis of the deposited data

Results flagged for a closer look

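In 24 groups of 6 mice (12 probes in either strain), 1 sample stood apart by Dixon's test: NOD.B10 replicate 4 for Mzb1, with a log2 ratio of 0.00925, where the next NOD.B10 mouse had -0.082 (gap over range 0.726). Mzb1 was above background on no array in Cy5, and chance marks about 1 in 20 such groups.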

How the results depend on the processing

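All 6 member probes were called higher, with 6 of 6 also when any mouse was left out, with the replicate number as a block and under median centring, the processed ratio, Cy5 alone and offset 16. With slide as a fixed term 5 were called (Cd79b lost), and 5 of the 5 that remain with a filter at 6 arrays (Bank1 out) or with 1 probe per gene. Fewest were called on slide 2 alone (1), on slide 3 alone (0, with 3 at an unadjusted p under 0.05) and with brightness as a covariate (0, with 2). Without slides 1 and 4, an alternative added after the data were seen, 5 were called (Cd79b lost, adjusted p = 0.0716), and 4 with a slide term (Bank1 lost too, adjusted p = 0.0702). The bound for Bank1 was 1.05-fold, and 1.83-fold with the lowest signal above background as floor. The replicate block changed no call of a named gene but that of Bcl6. The median difference of all probes was 0.02, and 0.43 under median centring, 0.55 for the processed ratio and 0.57 for processed Cy5.

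Of all probes, 1071 were higher and 876 lower. Higher calls numbered 508 with slide as a fixed term, 43 on slide 2, 2 on slide 3, 2581 under median centring, 1649 on processed Cy5, 420 without slides 1 and 4 (355 with a slide term) and 5 with brightness as a covariate. Lower calls numbered 429, 56, 1, 1, 328, 326 (268) and 0 in the same order, then 410 on the processed ratio, 366 on Cy5 alone with quantile scaling and 1674 without a filter. At an unadjusted p under 0.05 the covariate fit gave 399 probes. Leaving out 1 mouse gave 873 to 1219 higher and 713 to 1020 lower.

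Of the wider lists 19 genes were higher, and 16 to 21 without 1 mouse. The number was 7 with slide as a fixed term, 1 on slide 2, 0 on slide 3, 8 with a filter at 6 arrays, 6 without slides 1 and 4 with or without a slide term, and 0 with the covariate. Leaving out 1 mouse gave 0 to 1 lower, Creld2 at -0.57 (adjusted p = 0.0246) without NOD replicate 3. The covariate, which separates brightness from strain poorly, changed the sign of Vpreb3 (-0.013), Fcer2a (-0.036), Pik3cd (-0.20), Prdm1 (-0.13), Cxcl13 (-0.072), Tnfrsf13c (-0.16) and Edem1 (0.090). Median centring changed the sign of Creld2 (0.24) and Edem1 (0.22). Edem1, not called at -0.06, also took the other sign, at 0.020 both with a slide term and without slides 1 and 4, 0.36 on slide 2, 0.0016 without NOD replicate 6, 1.60 on the processed ratio, 0.18 on quantile-scaled Cy5 and 1.64 on processed Cy5. Within 1 slide only 2 mice of either strain enter. Other causes were not tested.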

Other observations

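Some lineage genes lay under the filter of 4 arrays and were picked out after their values were seen. Ltb, lymphotoxin beta, was above background on 3 NOD arrays and no NOD.B10 array, with a net Cy5 of 2.5, 8.25 and 36.5 (lowest, median and highest) in NOD, against -1.5, 2.5 and 7 in NOD.B10. With no filter it did not pass (limma, adjusted p = 0.393). Cxcr5, the receptor of Cxcl13, was read on 1 NOD array, with 3, 7.25 and 8 in NOD, against -3, 0.25 and 2.5 in NOD.B10. Its log2 difference of 0.28 passed with no filter (adjusted p = 0.0148), and the strains did not overlap, although nearly all of its signals were below the background mark.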
